A study of Mus musculus with 6 samples.

Results

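LINEs and SINEs are the retrotransposons without long terminal repeats that make up much of the mouse genome. The rows of the deposited repeat table that carry a LINE or SINE family name were followed here in cultured spermatogonial stem cells, from which sperm production is maintained. Of 12 family names sought, 10 were in the table of 53 rows: the 4 LINE families L1, L2, CR1 and RTE, and the 6 SINE rows Alu, B2, B4, ID, MIR and SINE. The names were chosen by family and not by any measured value, and all 10 passed the count minimum.

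Cells came from DBA2 testes at postnatal days 5 to 8 and were grown in culture. For 2 weeks, 3 cultures received 2 uM EPZ5676 and 3 received 0.2% ethanol, the vehicle. EPZ5676 (pinometostat) inhibits DOT1L, a methyltransferase of histone H3 that acts in the bodies of transcribed genes. The series calls the libraries biological triplicates, and the labels number them 1 to 3 in each group without saying what a number stands for. No label names the number of animals behind a culture.

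A LINE encodes the proteins that copy its own RNA back into DNA. L1 is the family that is still active in mice, and its full-length RNA is made by RNA polymerase II and carries a poly(A) tail. L2, CR1 and RTE are old families whose copies are fragments. SINEs encode no protein, depend on the machinery of a LINE, and are transcribed from their own promoter by RNA polymerase III. In the mouse the row named Alu holds the B1 elements. B2 and ID descend from transfer RNAs or tRNA-like RNAs, B4 resembles a fusion of ID and B1, and MIR is an old mammalian family. In germ cells, PIWI-interacting RNAs and DNA methylation keep young L1 copies silent. Copies of all these families also lie inside introns and untranslated regions of genes, so their sequence is also carried by ordinary transcripts.

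No file at hand holds the consensus of a family. BC1, the source RNA of ID elements, is therefore shown from the GENCODE M21 transcripts on GRCm38, because the deposited gene table has a row for it. It lies at chr7:144914470-144914637 on the plus strand, and capitals mark its longest run of A, 23 bases.
Bc1: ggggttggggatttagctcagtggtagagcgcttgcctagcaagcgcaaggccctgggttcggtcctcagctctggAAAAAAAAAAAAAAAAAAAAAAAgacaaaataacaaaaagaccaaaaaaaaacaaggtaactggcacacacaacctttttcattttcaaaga

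Gene counts totalled 17784332 to 54645903 per library; EPZ5676 replicate 2 was the deepest and ethanol replicate 2 the shallowest. Named repeat families summed to 2.40 to 3.82 counts per gene count. Counts were scaled by the gene count total of the same library and are given per 1000 gene counts. They are not divided by the length or the number of copies of a family, so the order of families is an order of counts and not of transcription per copy. Summed markers of undifferentiated spermatogonia stood at 4202 to 4661 CPM (TMM-normalised) over the 6 libraries, with 19 of the 20 markers above the count filter. Dazl alone held 1670 to 1818 CPM of that sum and Ddx4 626 to 679 CPM, so markers with low counts hardly enter it. The sum therefore says little about the undifferentiated state alone. Of the 19, 10 had a negative and 9 a positive log2 fold change with EPZ5676, with a median of -0.0070. None of the 19 passed edgeR's test. Without the replicate block edgeR gave an unadjusted p under 0.05 to 3 of the 19, against 7.41% of all genes. With the block it did so for 7 of the 19, against 18.5% of all genes. All 22 fibroblast markers passed the filter, and their sum was 1547 to 2052 CPM with EPZ5676 and 1540 to 2714 CPM with ethanol, highest in ethanol replicate 2 and next in EPZ5676 replicate 2. Of the 22, 20 had a negative log2 fold change with EPZ5676, with a median of -0.22 against -0.0066 over all genes. None of the 22 passed the test. In edgeR without the replicate block 0 of the 22 had an unadjusted p under 0.05, against 7.41% of all genes. With the block 8 of the 22 did, against 18.5% of all genes. Sertoli, Leydig and macrophage markers summed to at most 43.9, 10.4 and 18.7 CPM, with 5 of 8, 1 of 6 and 5 of 6 above the filter. In RNA from whole cultures, fewer cells of a type and less RNA per cell cannot be told apart.

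EPZ5676 and ethanol libraries did not differ detectably in any LINE or SINE family. With Benjamini-Hochberg adjusted p-values, edgeR's quasi-likelihood test called 0 of the 10 families, and 0 of all 48 families tested (0% called). At an unadjusted p under 0.05 the test gave 0 families as well, and the members' unadjusted p ran from 0.418 to 0.789, with an adjusted p of 0.861 for each. DESeq2 on the same scaling also called 0 and gave 0 at an unadjusted p under 0.05. Each member's mean was lower with EPZ5676, with log2 fold changes from -0.19 to -0.04 and a median of -0.07. That direction turned for 7 members without ethanol replicate 2, for 5 without EPZ5676 replicate 1, for 4 as shares of repeat counts and for 6 with TMM over the repeat families. The fibroblast markers lay on the same side, 20 of 22, and their part in the family values was not tested. The background moved alike: 35 of the 48 families had a negative value (72.9%), and the median of the 38 others was also -0.07. The groups overlapped for all 10 members; of the 48 families, 1 had groups that did not overlap (2.08%), the tRNA row.

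**Figure D1:**
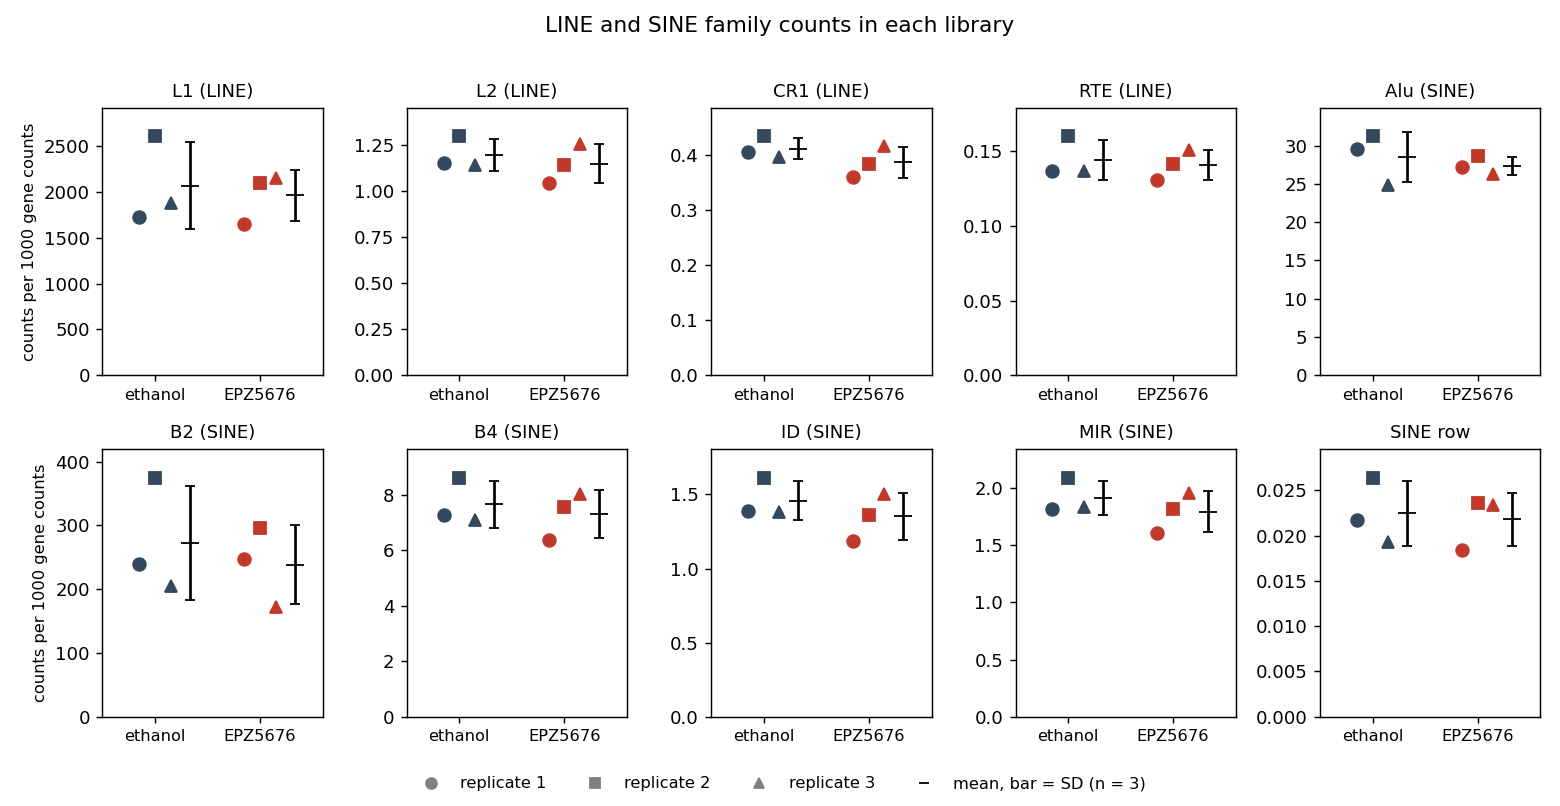
Counts of each LINE and SINE family per 1000 gene counts (vertical axes from 0) in the 3 ethanol and 3 EPZ5676 libraries. Symbols mark replicate numbers, and the black bar is the mean with its SD. The groups overlap in every panel, and ethanol replicate 2 is the highest library in all 10.

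L1 dominated the table. It had 1646, 2093 and 2153 counts per 1000 gene counts in EPZ5676 replicates 1, 2 and 3, against 1725, 2606 and 1881 in ethanol replicates 1, 2 and 3. Ethanol replicate 2 was the highest library and EPZ5676 replicate 1 the lowest. The other EPZ5676 libraries both lay above the other ethanol libraries, so the groups overlapped through those 2 libraries. The means were 1964 ± 277 with EPZ5676 and 2070 ± 470 with ethanol (SD, n = 3). The log2 fold change was -0.08 ± 0.21 (SE), with a 95% interval of -0.59 to 0.44, or 0.666-fold to 1.35-fold. A change of L1 inside that interval remains compatible with these libraries.

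The old LINE families were counted far less and were steadier per gene count. L2 had 1.05, 1.15 and 1.26 counts per 1000 gene counts in EPZ5676 replicates 1, 2 and 3, against 1.15, 1.30 and 1.14 in ethanol replicates 1, 2 and 3. CR1 had 0.361, 0.385 and 0.417 with EPZ5676 against 0.405, 0.434 and 0.397 with ethanol. RTE had 0.131, 0.141 and 0.151 with EPZ5676 against 0.136, 0.160 and 0.137 with ethanol. In all 3 families EPZ5676 replicate 1 was lowest, ethanol replicate 2 highest, and EPZ5676 replicate 3 second highest. Their log2 fold changes were -0.06 ± 0.13, -0.09 ± 0.10 and -0.04 ± 0.11 (SE) for L2, CR1 and RTE. The 95% interval of CR1, the narrowest of the 10, ran from 0.789-fold to 1.12-fold.

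B2 was the most counted SINE and the least steady member. It had 247, 296 and 172 counts per 1000 gene counts in EPZ5676 replicates 1, 2 and 3, against 239, 374 and 205 in ethanol replicates 1, 2 and 3. Both replicate 2 libraries were the highest of their group and both replicate 3 libraries the lowest. The means were 238 ± 62.1 with EPZ5676 and 273 ± 89.5 with ethanol (SD, n = 3). The log2 fold change was -0.19 ± 0.31 (SE), with the widest 95% interval of the members, 0.515-fold to 1.48-fold. It was -0.0067 without EPZ5676 replicate 3 and 0.10 without ethanol replicate 2. The spread of B2 between libraries of 1 group thus exceeded the difference between the groups.

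The Alu row, which holds B1, had 27.2, 28.6 and 26.2 counts per 1000 gene counts in EPZ5676 replicates 1, 2 and 3, against 29.5, 31.2 and 24.8 in ethanol replicates 1, 2 and 3. The EPZ5676 libraries all lay inside the ethanol range, and the log2 fold change was -0.06 ± 0.14 (SE). The highest Alu library exceeded the lowest 1.26 times.

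B4 had 6.36, 7.55 and 8.05 counts per 1000 gene counts with EPZ5676 and 7.28, 8.61 and 7.08 with ethanol, in replicates 1, 2 and 3. MIR had 1.61, 1.82 and 1.96 with EPZ5676 against 1.82, 2.09 and 1.83 with ethanol. The SINE row, elements assigned to no finer family, had 0.0184, 0.0236 and 0.0234 with EPZ5676 against 0.0217, 0.0264 and 0.0193 with ethanol. These rows showed the order of libraries seen for the old LINE families at both ends, with EPZ5676 replicate 1 lowest and ethanol replicate 2 highest. Their log2 fold changes were -0.06 ± 0.16, -0.09 ± 0.14 and -0.04 ± 0.16 (SE) for B4, MIR and SINE. The SINE row rests on 366 to 1287 counts per library, the fewest of the 10.

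ID had 1.19, 1.36 and 1.51 counts per 1000 gene counts in EPZ5676 replicates 1, 2 and 3, against 1.39, 1.61 and 1.38 in ethanol replicates 1, 2 and 3, a log2 fold change of -0.11 ± 0.14 (SE). The gene table has a row for Bc1, the source RNA of ID elements printed above, and it held 0 counts in all 6 libraries. A count of 0 allows at most 3 counts, or 0.0549 to 0.169 CPM of the column totals, for counting error only. The ID row held 23582 to 74507 counts in the same libraries. How either table treated reads with several alignments is not given in the sources used here, so a 0 at Bc1 does not show that BC1 RNA was absent.

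Per 1000 gene counts, the 10 families kept 1 order in all 6 libraries: L1, B2, Alu, B4, MIR, ID, L2, CR1, RTE and SINE. Mean L1 counts were 7.89 times those of B2, and mean B2 counts 9.16 times those of Alu. Neighbours whose ranges over the libraries overlapped were MIR with ID and ID with L2, at mean ratios of 1.32 and 1.20. For the other neighbours the lowest library of the higher family lay above the highest library of the lower family.

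**Figure D2:**
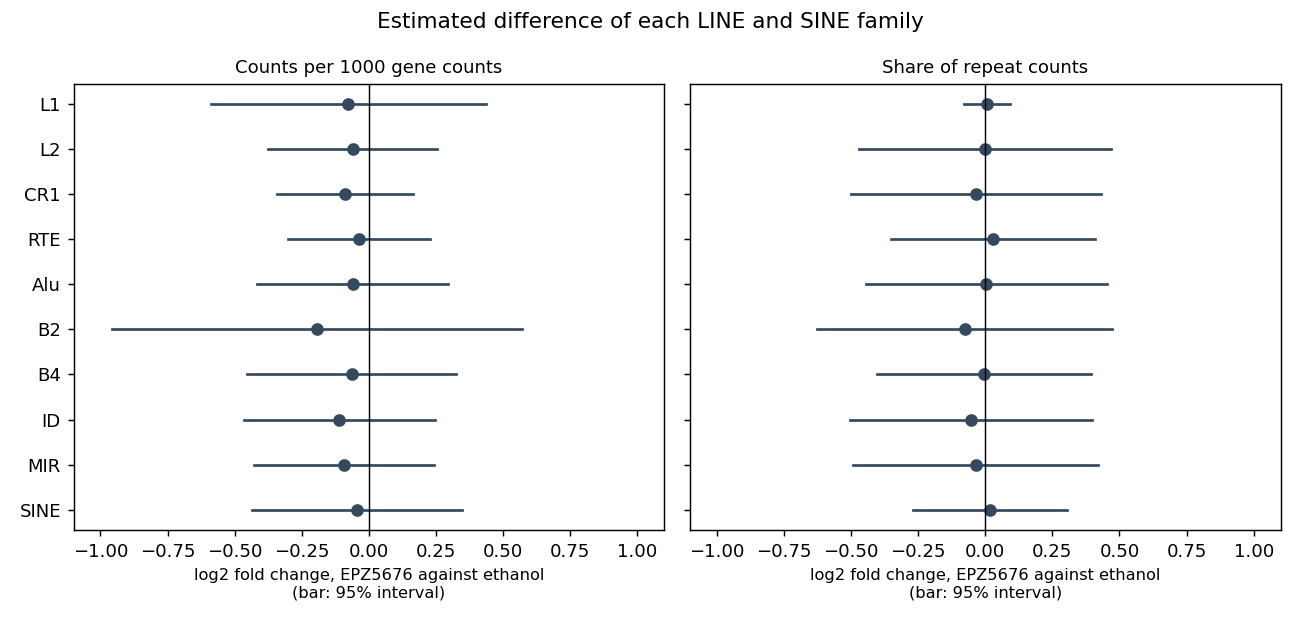
Log2 fold change of each LINE and SINE family, EPZ5676 against ethanol, with its 95% interval from edgeR, for counts per 1000 gene counts (left) and for shares of repeat counts (right). Every interval includes 0; the widest on the left is that of B2, -0.96 to 0.57, and the narrowest on the right that of L1, -0.08 to 0.09.

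Shares of the summed counts of named families remove the ratio of repeat to gene counts from the comparison. L1 held 68.6%, 67.5% and 72.5% of repeat counts in EPZ5676 replicates 1, 2 and 3, against 69.1%, 68.2% and 70.4% in ethanol replicates 1, 2 and 3. B2 held 10.3%, 9.53% and 5.81% with EPZ5676 and 9.58%, 9.80% and 7.68% with ethanol. L1 was highest and B2 lowest in the replicate 3 library of each group. The 10 families together held 78.3% to 80.5% in every library. Alu held 0.816% to 1.18%, B4 0.225% to 0.292%, and the other 6 families 0.000690% to 0.0729%. Wilson 95% intervals of these shares had half-widths of at most 0.0132 percentage points. They cover counting error only, and a read counted at several copies would make them too narrow.

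Tested as shares, 0 of the 10 members and 0 of the 48 families were called by edgeR's quasi-likelihood test (0% called), and 0 had an unadjusted p under 0.05. Mean L1 shares were 69.5% ± 2.66 with EPZ5676 and 69.3% ± 1.11 with ethanol (SD, n = 3), and the log2 fold change was 0.0057 ± 0.04 (SE). Its 95% interval, -0.08 to 0.09, was the narrowest of the members, which an item that fills most of the total must have. Mean B2 shares were 8.55% ± 2.40 and 9.02% ± 1.17, a log2 fold change of -0.08 ± 0.23 (SE). Of the members, 6 had a negative and 4 a positive value, from -0.08 to 0.03, so the uniform negative direction per gene count was not seen within the repeat counts. L1, RTE, Alu and SINE were the 4 with the other sign.

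Ratios between families within a library depend on neither total. L1 to L2 was 1575, 1827 and 1709 in EPZ5676 replicates 1, 2 and 3, against 1495, 2006 and 1643 in ethanol replicates 1, 2 and 3. Alu to MIR, a young against an old SINE, was 16.9, 15.7 and 13.4 with EPZ5676 and 16.2, 14.9 and 13.6 with ethanol. B2 to Alu was 9.11, 10.3 and 6.57 with EPZ5676 and 8.11, 12 and 8.25 with ethanol. Summed SINE to summed LINE counts were at 0.172, 0.160 and 0.0976 with EPZ5676 and at 0.162, 0.160 and 0.128 with ethanol. In each of these ratios the groups overlapped. L1 to L2 and B2 to Alu were highest in replicate 2 of both groups, and Alu to MIR and SINE to LINE lowest in replicate 3 of both.

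**Figure D3:**
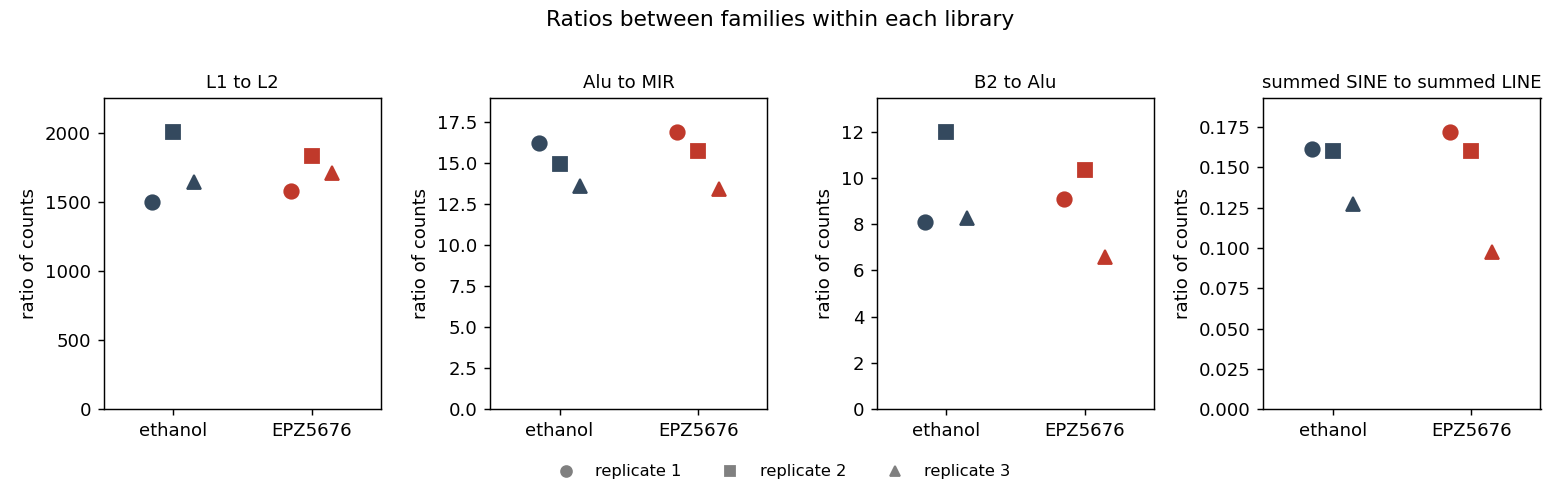
Ratios of counts within each library (vertical axes from 0): L1 to L2, Alu to MIR, B2 to Alu, and summed SINE to summed LINE. Symbols mark replicate numbers; the groups overlap in all 4 panels, and EPZ5676 replicate 3 has the lowest SINE to LINE ratio, 0.0976.

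Differences between same-numbered libraries changed sign with the number. In replicate 1, 9 of the 10 families were lower with EPZ5676, with a median log2 difference of -0.15. In replicate 2 all 10 were lower, with a median of -0.19. In replicate 3, 9 were higher, with a median of 0.13. B2 was the exception in replicates 1 and 3, at 0.05 and -0.25, against -0.34 in replicate 2. L1 was at -0.07, -0.32 and 0.20. None of the 10 families had the same sign in all 3 comparisons, and 7 of the 38 other families did. The others shifted with the members: 32, 27 and 8 of the 38 were lower in replicates 1, 2 and 3. With the replicate number as a block, edgeR's test called 0 of 48 families, 0 at an unadjusted p under 0.05, with an adjusted p of at least 0.794 for every member.

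**Figure D4:**
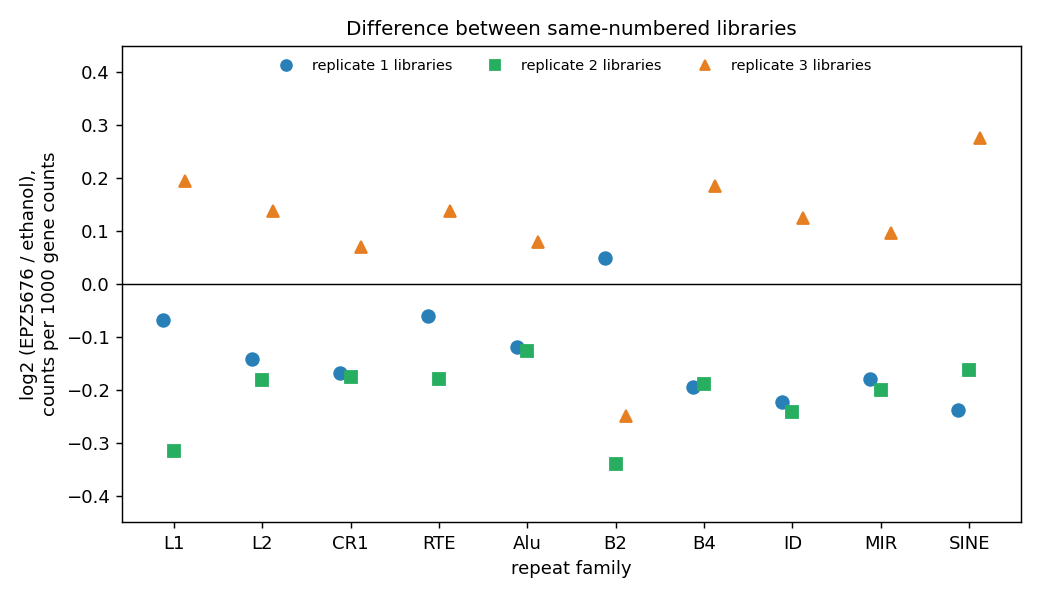
Log2 ratio of EPZ5676 to ethanol counts per 1000 gene counts between libraries with the same replicate number, for each family. Replicate 2 values lie below 0 for all 10 families, and replicate 3 values lie above 0 for all but B2.

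Per gene count, spread among libraries set L1 and B2 apart from the other members as a description. Over the 6 libraries the coefficient of variation was 27.9% for B2, 17.3% for L1 and 13.3% for SINE, and between 6.39% and 10.4% for the other 7. The highest library exceeded the lowest 2.17 times for B2, 1.58 times for L1 and 1.20 times for CR1. The median of that ratio was 1.33 over the members and 1.48 over the 38 others, whose range was 1.17 to 177. Within the 3 ethanol libraries alone the coefficient of variation was 32.8% for B2 and 22.7% for L1. The ratio of repeat to gene counts itself had a coefficient of variation of 17.9% over the 6 libraries. As shares of repeat counts, B2 still had the largest coefficient of the members, 19.4%. L1, which fills most of that total, had the smallest, 2.64%. The spread of L1 per gene count is therefore not shown to be particular to L1.

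**Figure D5:**
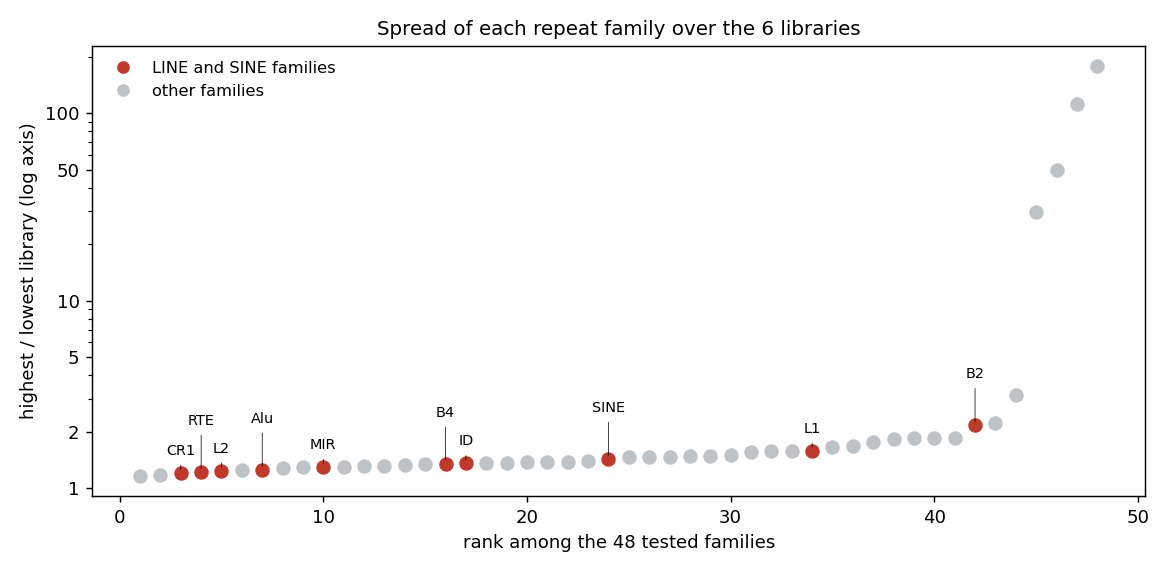
Ratio of the highest to the lowest of the 6 libraries (log axis), in counts per 1000 gene counts, for each of the 48 tested families in rank order. LINE and SINE families are red; CR1 is at 1.20 and B2 at 2.17, and the top of the ranking is held by other families, up to 177.

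Members fell into patterns over the libraries, described by Pearson's r of log2 values over 6 libraries that share 1 divisor. L2, CR1, RTE, B4, ID, MIR and SINE varied together, with r between 0.784 and 0.999 for every pair. L1 correlated with these 7 at 0.77 to 0.96, Alu at 0.36 to 0.67 and B2 at 0.15 to 0.49, while Alu and B2 had r = 0.82 with each other. Of the families outside the LINE and SINE rows, L1 was most like ERVK (0.99), the row named LTR (0.98) and ERVL (0.98), which are retroviral repeats with long terminal repeats. Alu was most like hAT (0.87), Mariner (0.73) and Simple_repeat (0.71).

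The libraries at the ends of these patterns also stood at the ends of other measures. Nuclear-retained long RNAs, a list of 10 including Malat1 and Neat1, summed to 593, 727 and 788 CPM in EPZ5676 replicates 1, 2 and 3, against 683, 856 and 627 CPM in ethanol replicates 1, 2 and 3. Malat1 had 409, 466 and 578 CPM with EPZ5676 and 509, 574 and 435 CPM with ethanol, most of each sum. EPZ5676 replicate 1 was lowest on the summed list, as it was for 8 of the 10 families. Ethanol replicate 2 was highest on the summed list, as for all 10 families and for fibroblast markers. Malat1 itself was highest in EPZ5676 replicate 3. Neat1 was lowest in ethanol replicate 1, at 43.4 CPM against 44.7 CPM in EPZ5676 replicate 1. Among RNAs that lack a poly(A) tail, the rRNA row ranged more widely, from 0.160 to 17.8 counts per 1000 gene counts. The tRNA row ran only from 1.89 to 2.53. The rRNA row was highest in EPZ5676 replicate 2, which was the highest library for 0 of the 10 families. A list of such RNAs among the genes summed to 1483 CPM in EPZ5676 replicate 2 and 934 CPM in ethanol replicate 2, above the other libraries. Both replicate 2 libraries also stood above the others for B2 and the SINE row, but not for the remaining members. The part of nuclear RNA, or of RNA without a poly(A) tail, in the family counts was not tested. Without both replicate 2 libraries, 5 of the 10 members had a negative log2 fold change, between -0.08 and 0.08, and edgeR again called 0, with 3 of 48 families and 0 members at an unadjusted p under 0.05.

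Genes that act on LINE and SINE copies, on their transcription or on their RNA were followed as 5 lists, of which 84 genes were tested. edgeR's quasi-likelihood test, adjusted by Benjamini-Hochberg over 14855 genes, passed 0 of the 84, and 0 of all genes (0% called). At an unadjusted p under 0.05 there were 6 of the 84, or 7.14%, against 7.41% of all genes. DESeq2 called 52 genes, 0 of them among the 84. With the replicate block 0 of the 84 passed, where 0.653% of all genes did (0.33% lower and 0.323% higher), and 23 of the 84 had an unadjusted p under 0.05 (27.4%, against 18.5% of all genes). The groups did not overlap for 14 of the 84 (16.7%, against 14.9%). The median log2 fold change was 0.00057 over the 84 and -0.0066 over all genes. Leaving out replicate 2 from both groups, the blocked fit called 8 of the 84, among 795 genes: Mael, Fkbp6, Dnmt3b, Pphln1, Mov10, Samhd1 and Tex19.1 lower, Dhx9 higher. Without replicate 3 it called 5, among 761 genes: Samhd1 and Tex19.1 lower, Rnaseh2c, Polr3e and Gtf3c1 higher. These genes are named after their values were seen, and without replicate 1 the blocked fit called 0. With all libraries 14855 genes were tested. The share of all genes called in the fits that left a replicate out is not given. The counts and names are therefore no result about the lists.

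The PIWI-interacting RNA pathway, which guides silencing of transposons in male germ cells, had 19 tested genes and a median log2 fold change of -0.05. Its extremes were Mov10l1, a helicase that processes piRNA precursors, at -0.21 ± 0.06 (SE), and Tdrkh, a Tudor-domain partner of PIWI proteins, at 0.12 ± 0.07. DNA methylation genes had 10 tested members and a median of 0.04. They ran from Dnmt3b, a de novo methyltransferase, at -0.22 ± 0.11 to Tet1, which oxidises methylcytosine and had only 39 to 148 counts per library, at 0.50 ± 0.25. Genes of heterochromatin and the HUSH complex, which represses young L1 copies, had 19 tested members and a median of 0.0063, between Pphln1 at -0.19 ± 0.12 and Adnp at 0.21 ± 0.22. None of these 48 genes passed the test.

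Genes that restrict L1 RNA or its copying had 14 tested members and a median of -0.10, with 10 negative and 4 positive values. Samhd1, which degrades the nucleotides needed for reverse transcription, stood at 78.4, 71.8 and 74.0 CPM in EPZ5676 replicates 1, 2 and 3, against 104, 85.9 and 112 CPM in ethanol replicates 1, 2 and 3. The groups did not overlap, and the log2 fold change was -0.43 ± 0.11 (SE). Samhd1 did not pass over all genes, with an adjusted p from edgeR of 0.558, or of 0.0504 in the blocked fit, the smallest of the 84. Rnaseh2c, a subunit of RNase H2, was the highest of this list at 0.38 ± 0.20. Genes of RNA polymerase III and of SINE RNA binding had 22 tested members and a median of 0.0054. They ran from Polr3g, at -0.21 ± 0.07, to Polr3e, at 0.24 ± 0.09, both polymerase III subunits. Dot1l, the gene of the inhibited enzyme, was at 243 ± 40.3 CPM in the EPZ5676 libraries against 201 ± 3.92 CPM in the ethanol libraries (SD, n = 3), and did not pass.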

How the data were processed

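RNA was measured in 6 libraries from a TruSeq Stranded kit for poly(A) mRNA, per the labels' protocols. The authors deposited whole-number counts per gene symbol (24495 symbols) and whole-number counts per repeat family. STAR, featureCounts, edgeR, Bowtie and mm9 are named in the submitters' processing notes. For the repeat annotation, the strand setting and multiply aligned reads the setting is not given in the sources used here. If a read was counted at each of several copies, young families with similar copies would be raised most. Here 3 rows naming no family (0.171% to 0.24% of repeat counts) were left out, and families needed 10 counts in 3 libraries, which left 48. Counts were tested as deposited with edgeR 4.0.16 (R 4.3.3), 2-sided, at an adjusted p of 0.05, with gene count totals as library sizes; shares used the repeat total. Genes were kept by filterByExpr and scaled by TMM. DESeq2 1.42.0, other scalings and filters and left-out libraries were alternatives. SE and intervals come from the quasi-likelihood F.

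All families of the rule are named, with the 3 families most like L1 and Alu and the extremes of each gene list. Members and lists were chosen with earlier results of these data known. Same-numbered libraries deviated together across genes (r of 0.50, 0.65 and 0.39 for replicates 1, 2 and 3). EPZ5676 replicate 1 with ethanol replicate 3 had r of 0.34 there, and EPZ5676 replicate 3 with ethanol replicate 1 had 0.145. The remaining differently numbered pairs were negative. Deviations were taken from the mean of each group, so these r depend on each other, and replicates 1 and 3 are not clearly paired. Across the 48 families r was 0.76, 0.53 and -0.75, while EPZ5676 replicate 3 with ethanol replicate 1 had r of 0.84 and EPZ5676 replicate 2 with ethanol replicate 3 had 0.75, so the numbers did not pair the libraries there. No 2 libraries were copies within sampling noise (chi-square per degree of freedom of at least 3.86). p-values measure the spread between these cultures.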

Additional observations from a re-analysis of the deposited data

How the results depend on the processing

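No alternative called a LINE or SINE family, or any of the repeat families, per gene count or as a share; the smallest adjusted p of a member per gene count was 0.726. Direction was less stable. With repeat column totals, log2 fold changes were above 0 for L1 (0.0057), RTE (0.029), Alu (0.0041) and SINE (0.019). With TMM over the repeat families they were above 0 for L1 (0.019), L2 (0.028), RTE (0.057), Alu (0.036), B4 (0.022) and SINE (0.043). DESeq2 with its own size factors gave 0.021, 0.029, 0.056, 0.039, 0.024 and 0.059 for these 6. Without both replicate 2 libraries L1 (0.076), L2 (0.0044), RTE (0.043), B4 (0.0054) and SINE (0.027) were above 0. Leaving out 1 library gave ranges of -0.19 to 0.12 for L1, -0.13 to 0.0044 for L2, -0.086 to 0.044 for RTE, -0.15 to 0.0087 for Alu, -0.38 to 0.10 for B2, -0.14 to 0.028 for B4 and -0.14 to 0.086 for SINE. The values above 0 among these came without EPZ5676 replicate 1 or ethanol replicate 2. CR1, ID and MIR were below 0 in every one of the alternatives listed here, in which single libraries were left out only per gene count. As shares the sign was less stable. Without EPZ5676 replicate 2, and also without ethanol replicate 1, only 1 member was below 0 as a share. The cause was not tested.

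Across families, same-numbered libraries deviated together in replicates 1 and 2 but not 3 (r of -0.75). The replicate block changed no call of a family; it raised the genes called from 0 to 97, and the control genes called stayed at 0. Blocked fits without replicate 1, 2 or 3 were chosen after seeing the data and had 1 residual degree of freedom. They called 0 to 795 genes (761 without replicate 3) and 0 to 8 control genes (5 without replicate 3). The share of all genes called in these fits is not given, so the counts are no result about the control genes. DESeq2 called 52 genes, and 10 were called without both replicate 2 libraries. Each LINE and SINE family had at least 366 counts in every library.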
